A study of Mus musculus with 6 samples.

Results

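The genes examined were 10 mouse genes, of 21779 protein-coding genes on the map, whose products act in or on platelets: Gp1ba, Gp1bb, Gp9, Gp5, Vwf, Itga2b, Gp6, Treml1, Pf4 and Ppbp. They were followed in a map of chromatin states of hematopoietic stem cells (HSCs), the cells of the bone marrow that renew themselves and give rise to all blood lineages. All segments of the map that overlapped a gene record of the 10 genes, extended by 20 kb on each side, were taken. This gave 261 of the 850831 segments of the map, in 9 separate windows that covered 571 kb. The windows of Pf4 and Ppbp overlap and count as 1. At the window edges 18 segments were clipped.

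The series measured histone variant H3.3 by ChIP-seq in HSCs from bone marrow of adult C57BL/6 mice, with 2 wild-type and 2 HIRA knockout H3.3 libraries and 1 input of each genotype. HIRA is the chaperone that places H3.3 on DNA outside replication. Every library, wild-type ones included, carries the same protocol: mice received poly(I:C), 20 ug each time and 2 times in all, and the sort followed 7 days from the start of treatment. The Cre driver is not given in the sources used here. The values analysed are 1 segmentation of the mm10 genome into 18 states in bins of 200 bases, which its file name labels as wild-type HSC H3.3. It has no read counts, replicate or knockout column. Depth is thus unknown, no test was possible, and every comparison is a description of 1 map. The states carry numbers without names.

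Platelets are shed by megakaryocytes, and megakaryocytes can arise from HSCs by a short route. A share of HSCs is known to carry platelet transcripts such as Vwf and Itga2b before any visible commitment. The products fall into roles. The complex of GP Ib alpha, GP Ib beta, GP IX and GP V catches von Willebrand factor on injured vessel walls. Integrin alpha IIb binds fibrinogen and links platelets, GP VI is a collagen receptor, and the alpha granules hold the chemokines PF4 and PPBP and the receptor TREML1.

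A few states or state groups recur below, and each is known only by where it lies. States 3 to 6 held the start of transcription of 8794 of 17492 protein-coding genes with a listed start (50.3%). States 9 to 11 held 18.4% of starts and state 18 held 19.3%. State 17 held 5.74%, and state 16 held 320 starts (1.83%). Around all starts state 16 formed shoulders rather than a centre: it held 12.1% of genes at 1.2 kb upstream, 1.83% at the start itself and 7.69% at 1.8 kb downstream. Of 8 surface marker and regulator genes of HSCs and early progenitors with a listed start, 7 began in states 3 to 6. These states held 50.3% of all starts. The 7 genes were Kit, Procr, Slamf1, Mecom, Hlf, Fgd5 and Flt3, and the last is not carried on the HSC surface. Cd48, also absent from the HSC surface, began in state 2. As Flt3 began in the same states as the HSC genes, these starts cannot check the cell label.

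Of the 9 members with a listed start, 5 began in state 16 (Gp1ba, Gp9, Gp5, Pf4 and Ppbp), against 1.83% of all protein-coding genes. Only Itga2b, 1 of 9, began in states 3 to 6, where 50.3% of all genes begin. Treml1 began in state 17, and Gp1bb and Gp6 began in state 11, which held 10.1% of all starts. None of the 9 began in state 18, which held 19.3% of all starts. Vwf has no listed start, and the low-coordinate end of its record lay in state 16. By either end of the record, which needs no start, 6 of 10 members touched state 16, against 7.11% of all genes. By the same measure 5 of 10 touched state 17 (26.3% of all) and 2 of 10 state 18 (34.3%). Gp9, on the plus strand, touched state 16 only by its high-coordinate end, where its record closes. Its low-coordinate end, at 87776131, lay in state 17. Its listed start, at 87778070, lies inside the record, so its place among the starts in state 16 rests on that listed start.

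**Figure D1:**
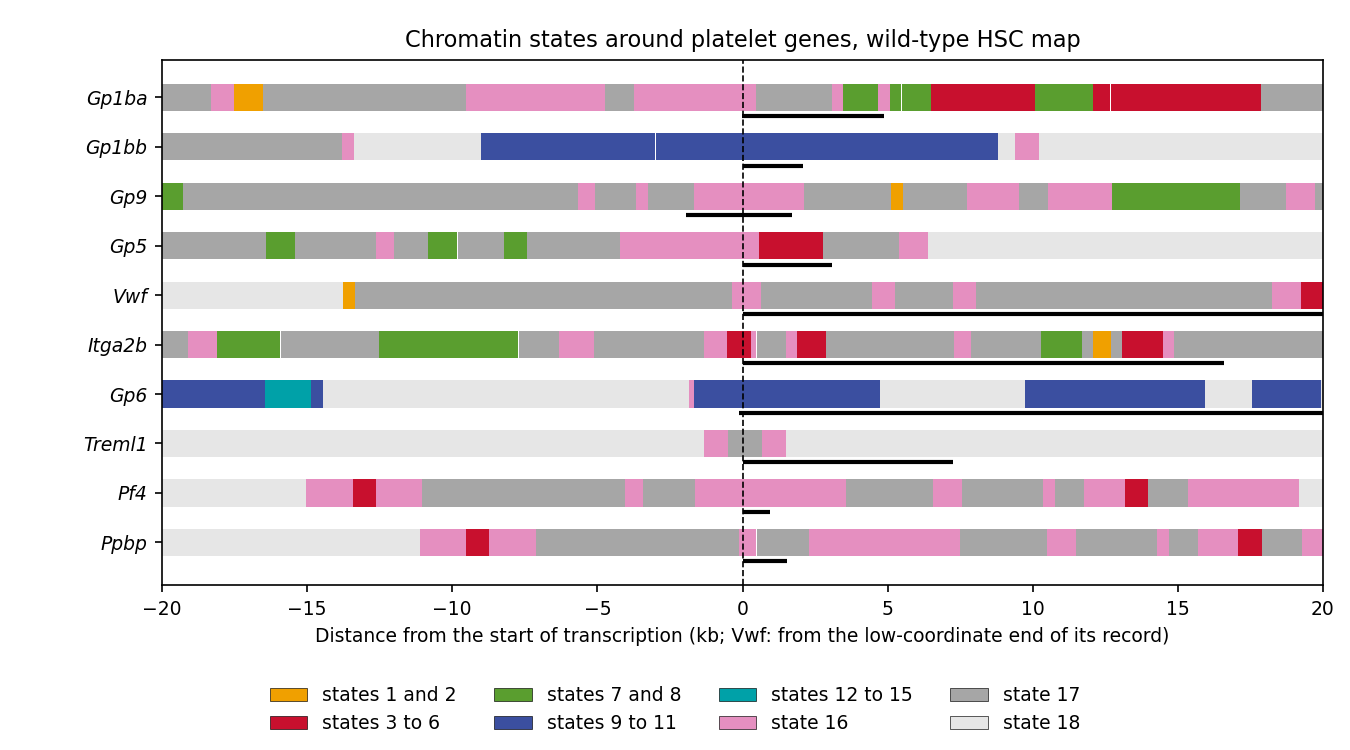
Each bar is 1 platelet gene, coloured by chromatin state, with distance in kb from the start of transcription on the horizontal axis and transcription running to the right. Vwf is drawn from the low-coordinate end of its record, with no direction given. Black lines mark the gene records, cut at 20 kb; state 16 covers the dashed start line in Gp1ba, Gp9, Gp5, Pf4 and Ppbp and the end of the Vwf record, while Itga2b has states 3 to 6 there and Gp1bb and Gp6 have states 9 to 11.

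The promoters of 5 members are shown because their starts lay in 3 kinds of state. Each runs from 250 bases before to 50 bases after the start, on the strand of the gene, from RefSeq on GRCm38.p6, the assembly of mm10. All 9 members with a listed start were matched. Capitals mark matches to GATA factor words (AGATAA or AGATAG or TGATAA or TGATAG) and to an ETS word (GGAAGT), searched on both strands, so a match on the other strand reads as its reverse complement. None of the marked matches overlap.
Pf4 (state 16; chr5:90772185-90772484, plus strand): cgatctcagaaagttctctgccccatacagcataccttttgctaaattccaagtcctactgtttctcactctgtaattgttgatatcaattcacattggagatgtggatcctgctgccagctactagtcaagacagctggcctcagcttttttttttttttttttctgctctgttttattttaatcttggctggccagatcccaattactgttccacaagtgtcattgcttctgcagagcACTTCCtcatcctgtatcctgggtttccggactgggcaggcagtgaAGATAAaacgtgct
Gp1ba (state 16; chr11:70638872-70639171, plus strand): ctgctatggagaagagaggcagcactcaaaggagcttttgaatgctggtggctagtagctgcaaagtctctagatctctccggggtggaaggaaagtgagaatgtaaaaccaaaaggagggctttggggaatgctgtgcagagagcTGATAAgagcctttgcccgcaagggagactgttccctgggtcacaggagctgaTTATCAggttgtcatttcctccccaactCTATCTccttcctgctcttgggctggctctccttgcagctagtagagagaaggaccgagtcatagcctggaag
Gp5 (state 16; chr16:30310732-30311031, minus strand): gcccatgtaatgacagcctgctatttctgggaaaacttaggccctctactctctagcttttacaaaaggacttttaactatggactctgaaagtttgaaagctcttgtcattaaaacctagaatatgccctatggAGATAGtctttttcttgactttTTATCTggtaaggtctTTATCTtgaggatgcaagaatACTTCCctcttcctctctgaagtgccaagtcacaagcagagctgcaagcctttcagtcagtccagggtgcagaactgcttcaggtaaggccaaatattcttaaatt
Itga2b (state 5; chr11:102469834-102470133, minus strand): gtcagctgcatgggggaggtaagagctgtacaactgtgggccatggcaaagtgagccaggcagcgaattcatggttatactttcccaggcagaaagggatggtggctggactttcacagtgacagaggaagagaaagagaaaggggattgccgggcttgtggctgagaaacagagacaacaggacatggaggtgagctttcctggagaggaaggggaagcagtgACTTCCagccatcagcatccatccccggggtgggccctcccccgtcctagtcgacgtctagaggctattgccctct
Gp1bb (state 11; chr16:18622354-18622653, minus strand): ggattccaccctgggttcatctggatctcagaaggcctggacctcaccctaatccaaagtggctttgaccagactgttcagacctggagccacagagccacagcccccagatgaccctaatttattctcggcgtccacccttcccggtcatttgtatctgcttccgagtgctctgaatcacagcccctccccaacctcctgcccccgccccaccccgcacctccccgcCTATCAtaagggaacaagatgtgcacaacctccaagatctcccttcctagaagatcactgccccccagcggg

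These promoters were poor in CpG, the dinucleotide that clusters in the promoters of widely expressed genes. The 300 bases of Gp5 held 0 CpG, those of Pf4, Gp1ba, Gp9 and Ppbp held 3 each, and those of Gp6 held 1. Treml1 had 5, Itga2b 6 and Gp1bb 8. The median over all protein-coding promoters was 13, with quartiles of 3.75 and 24. By state at the start, the median was 22 for states 3 to 6, 12 for states 9 to 11, 3 for state 16, 4 for state 17 and 2 for state 18. Itga2b thus lay in states 3 to 6 with fewer CpG than the lower quartile of 15 for that group. A limit of at most 5 CpG, chosen after the values were seen, took 7 of the 9 members and 32.7% of all promoters. Of all 5727 such promoters 4.05% began in state 16, 6.69% in states 3 to 6 and 49.1% in state 18. Of the 7 members among them, 5 began in state 16.

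**Figure D2:**
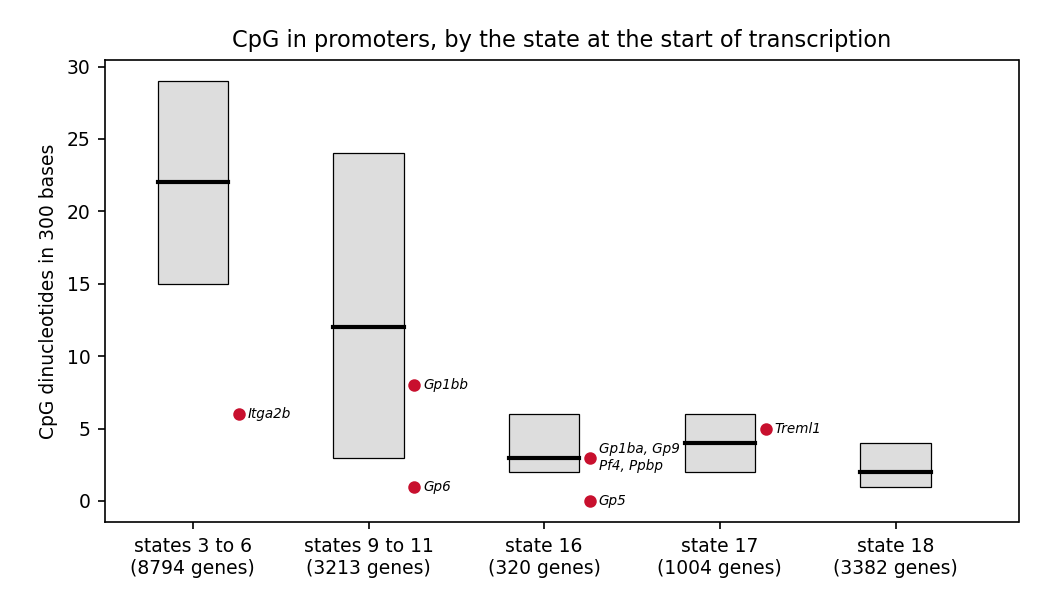
CpG dinucleotides in the 300-base promoter (vertical axis) by the state at the start (horizontal axis): grey boxes span the quartiles of all protein-coding genes, black lines are medians, and red points are the platelet genes. The 5 state 16 members sit at 0 to 3 CpG beside a state 16 median of 3, and Itga2b with 6 lies below the box of states 3 to 6.

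At least 1 GATA word was present in 5 of 9 member promoters, against 26.7% of all promoters. The share was 16.8% in states 3 to 6 and 41.9% in state 16. It was 37.6% in state 17 and 44.6% in state 18, whose promoters are also poor in CpG. Gp1ba and Gp5 held 3 matches each. Gp9 and Ppbp, which also began in state 16 and are not printed above, held none, nor did Itga2b and Treml1. Counted in bases from the start, with the start as 0, the words of Gp1ba began at -104, -51 and -23 and those of Gp5 at -115, -93 and -77. The word of Pf4 began at 36, after the start. The ETS word was present in 6 of 9, against 25.1% of all promoters and 31.9% of those in state 16. Its match began at -10 in Pf4, -26 in Itga2b, -56 in Gp5, -57 in Ppbp and -240 in Gp9, and after the start, at 16, in Gp6. Pf4, Gp5 and Gp6 held both kinds of word, and the share of all promoters with both was not computed. The word TGACAG, bound by MEIS factors, was in 4 of 9 promoters (18.8% of all), and TGTGGT, bound by RUNX factors, in 1 of 9 (15.1% of all). TATAAA matched only Ppbp, against 13.3% of all promoters. A match describes letters and says nothing on binding.

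The von Willebrand receptor complex did not share 1 state, although its subunits assemble together. Gp1ba encodes the subunit that binds von Willebrand factor (gene 14723, chromosome 11, 70639102 to 70643986). Its start lay in a state 16 segment of 4.2 kb, which reached 3.72 kb upstream and 0.478 kb into the gene. State 16 covered 25.0% of its window, and 74 of 21779 protein-coding genes had a higher share. States 3 to 6 covered 20.9%, but 0% of the gene record itself. The nearest of them began 6.48 kb downstream, in 2 runs of 3.6 and 5.8 kb that lay over the neighbours Slc25a11 and Rnf167, and Rnf167, Pfn1 and Eno3.

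Gp9, which encodes the small GP IX subunit (gene 54368, chromosome 6, 87776131 to 87779786), had state 16 over 92.6% of its record. The segment at its start spanned 3.8 kb, from 1.67 kb upstream to 2.13 kb downstream. Its window held 22.4% state 16, 56.8% state 17 and 0% of states 3 to 6 and of states 9 to 11. The nearest state 3 to 6 segment was 30.9 kb away.

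Gp5, which encodes GP V (gene 14729, chromosome 16, 30307685 to 30310781), combined both patterns. State 16 covered its start in a segment of 4.8 kb that reached 4.22 kb upstream. A run of states 3 to 6 of 2.2 kb then began 0.581 kb after the start, inside the gene, and covered 71.0% of the record. It was the only member with a start in state 16 and states 3 to 6 within 1 kb. The other 4 began in state 16 with none of states 3 to 6 within 1 kb. Of the 320 protein-coding genes that begin in state 16, 265 did the same (1.51% of all with a listed start). This absence is thus usual for a start in state 16.

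Gp1bb, which encodes GP Ib beta (gene 14724, chromosome 16, 18620319 to 18622403), stood apart from its partners. States 9 to 11 covered 100% of its record and formed 1 unbroken run of 17.8 kb, from 9 kb upstream to 8.8 kb downstream of its start. The record of Septin5, which encodes a septin abundant in neurons and platelets, overlaps Gp1bb, with ends in states 11 and 9. The run covers both, so it cannot be assigned to either gene. State 16 made up 2.85% of the window, in segments at least 9.4 kb from the start.

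The segments at the start of Pf4, Gp5, Gp1ba and Gp9 were long for state 16. They spanned 5.2, 4.8, 4.2 and 3.8 kb, against a median of 1.2 kb and an upper quartile of 2 kb over the 320 genes that begin in state 16. The median over all state 16 segments of the map was 0.6 kb. The Ppbp segment, with 0.6 kb, lay at that median.

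Pf4 and Ppbp, the chemokines of the alpha granule, have starts 3.92 kb apart on chromosome 5 (genes 56744 and 57349, 90772435 to 90773383 and 90768518 to 90770063). The whole Pf4 record lay in the state 16 segment of 5.2 kb. The Ppbp record lay 31.2% in state 16 and 68.8% in state 17. State 16 covered 38.1% of the Pf4 window, and 1 protein-coding gene, Rnase10, had a higher share. For Ppbp the share was 33.8%, with 9 genes higher. As the windows overlap, these are largely 1 observation. States 3 to 6 were in 0% of both records and appeared in 2 runs of 0.8 kb. One lay at an end of Cxcl5 and one at the start of Cxcl3, which encode chemokines that attract neutrophils. Their nearest bases were 12.6 kb upstream and 13.2 kb downstream of the Pf4 start.

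Itga2b, which encodes integrin alpha IIb (gene 16399, chromosome 11, 102453297 to 102469883), was the only member that began in states 3 to 6. Its start lay in a state 5 segment of 0.8 kb, from 0.517 kb upstream to 0.282 kb downstream, with state 16 on both sides. It had 2 more runs inside the record, of 1 kb from 1.88 to 2.88 kb and of 1.4 kb from 13.1 to 14.5 kb after the start. Together these states covered 16.2% of the record, and state 17 covered 62.1%. The window held 45 segments in 12 states, the most states of the 10 windows. States 9 to 11 there (4.59%) lay from 29.3 kb downstream, in Fam171a2.

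Vwf, which encodes the adhesive ligand of the receptor complex (gene 22371, chromosome 6, 125552948 to 125686679), is the longest record at 134 kb and takes 174 kb of the 571 kb. Its strand is not in the tables used, so distances run from its low-coordinate end. That end lay in a state 16 segment of 1 kb, and the other end in state 8. States 3 to 6 occurred in 2 short islands inside the record, of 1.2 kb from 19.3 kb and of 1 kb from 50.3 kb. Both had the order 5, 3, 5 with state 16 on either side. Neither lay within 1 kb of a listed start or a record end of any gene. The single state 1 segment of the record, of 0.2 kb, lay 20.9 kb in, past 0.4 kb of state 16 after the first island.

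From 57.1 kb on, state 8 formed 22 segments of 38.2 kb in all, alternating with state 17, and before that point there was none. State 8 covered 22% of the Vwf window. Over the 10 members it was in 2 records, those of Vwf and Itga2b, against 49.3% of all genes. This count depends on record length.

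**Figure D3:**
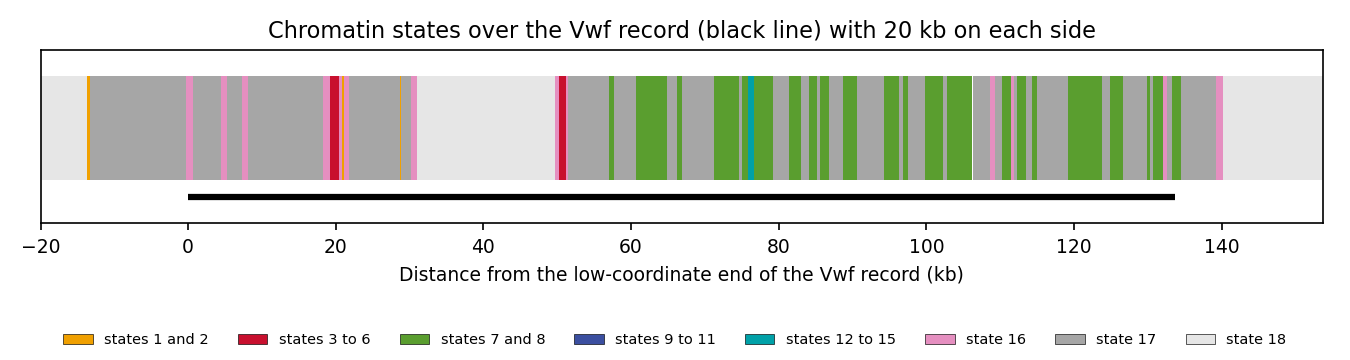
The Vwf record (black line) with 20 kb on each side, coloured by chromatin state, with distance from the low-coordinate end in kb on the horizontal axis. The red islands of states 3 to 6 lie at 19.3 and 50.3 kb, and the green segments of states 7 and 8 begin at 57.1 kb.

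Gp6 and Treml1, receptors of the immunoglobulin superfamily, lay mostly in state 18 or states 9 to 11. Gp6 (gene 243816, chromosome 7, 4362853 to 4397851) began in a state 11 segment of 6.2 kb. States 9 to 11 covered 65.3% of its record and state 18 covered 32.4%, with the rest in short pieces of states 14 and 15. Its window held 0% state 17, the only such window of the 10, and 0.267% state 16. The nearest state 3 to 6 segment was 46.7 kb away.

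Treml1 (gene 71326, chromosome 17, 48359916 to 48367176) had the largest share of state 18 of the 10 windows, 86.1%. A state 17 segment of 1.2 kb held its start, with a state 16 segment of 0.8 kb on each side, the nearer 0.516 kb upstream. Its window had 5.50% state 16 but 0% states 3 to 6, the nearest of which was 47.9 kb away.

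Over the 9 members, 7 had state 16 within 1 kb of the start, against 18.7% of all genes, and 2 had states 3 to 6 within 1 kb, against 52.5%. The median distance to the nearest state 3 to 6 segment was 12.6 kb, with a range from 0 kb at Itga2b to 47.9 kb at Treml1. Over all genes the upper quartile was 69.1 kb, above every one of the 9 members. The median over all genes was 0 kb, which follows from the 50.3% of starts that lie in these states. The median distance to state 1 was 77 kb against 74.2 kb over all genes, and 5 of 9 members were farther than that median. To state 2 it was 28.7 kb against 39.4 kb, with 3 of 9 farther.

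**Figure D4:**
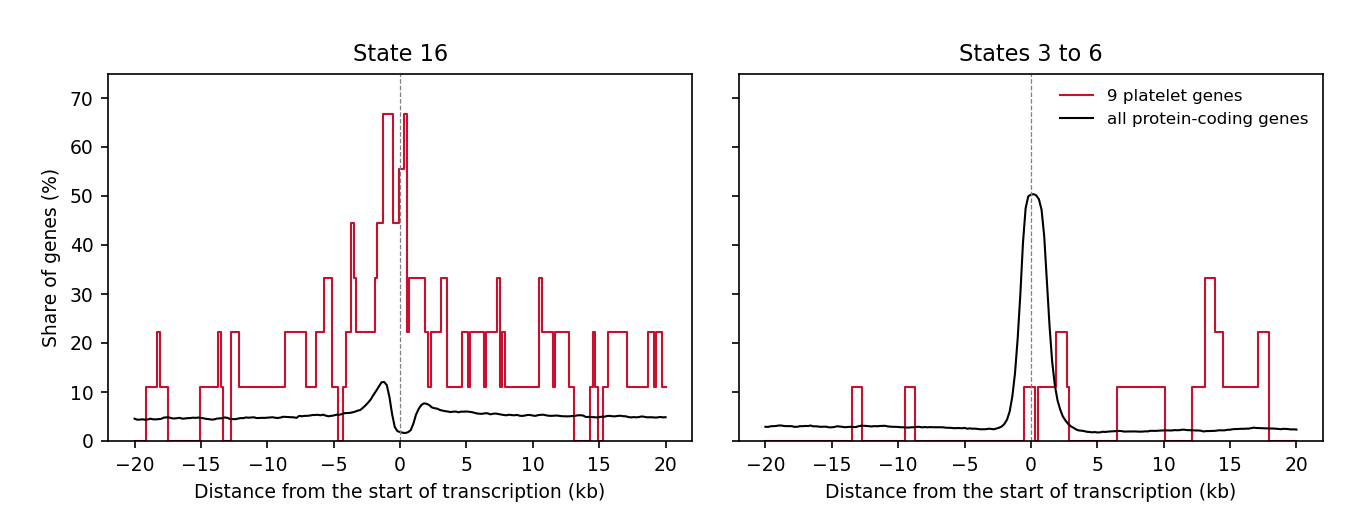
Share of genes (vertical axis, %) in state 16 (left) and states 3 to 6 (right) by distance from the start in kb, for the 9 platelet genes with a listed start (red) and 17492 protein-coding genes (black). For all genes states 3 to 6 peak beside the start and state 16 dips to 1.83% there, whereas state 16 holds 6 of 9 platelet genes at 0.4 kb on the downstream side and from 1.2 to 0.6 kb upstream.

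In the windows as a whole, 6 of 10 members had states 3 to 6 (67.4% of all genes) and 10 of 10 had state 16 (82.3%). There were 11 runs of states 3 to 6, with a median length of 1.2 kb and a range of 0.8 to 5.8 kb. Of these, 6 lay in a member record (3 in Itga2b, 2 in Vwf and 1 in Gp5). The other 5 lay within 1 kb of an end of a neighbouring gene. Across records, 3 of 10 members had any base in states 3 to 6, against 56.5% of all protein-coding genes. State 16 was in 8 of 10 records, against 53.5%. For states 9 to 11 it was 2 of 10 against 34.5%. State 17 was in 7 of 10 against 61.9%, near the background, and state 18 in 3 of 10 against 49.8%. Longer records can hold more states, and member records were mostly short. The median window, with 20 kb on each side, was 44.3 kb over members and 57.2 kb over all protein-coding genes. Low counts over records therefore cannot be read apart from record length.

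State 16 made up 10.6% of the bases of the member windows, against 3.17% of the map. With each gene weighted equally it was 15.6%, and the longest window, that of Vwf, had 5.18%. The median member had 11.5%, in a range from 0.267% (Gp6) to 38.1% (Pf4), against a median of 3.66% over windows of all protein-coding genes, and 8 of 10 members lay above that median. The overlapping windows of Pf4 and Ppbp enter the equal-weight share, the member median and this count as 2 members. With either of them left out, the member median is the value of Itga2b, 8.13%. State 17 made up 33.9% (map 15.2%), and its median was 38.4% over members and 23.7% over all protein-coding windows. State 18 made up 28.2% (map 55%), but gene windows in general held less of it than the map: the median was 21.7% over members and 26.4% over all protein-coding windows, and 4 of 10 members lay above the latter. For states 3 to 6 the share was 3.61%, and the median member (2.56%) lay close to the median gene (2.77%). Without Gp1ba it was 2.13%. States 9 to 11 made up 9.43% (map 13.5%), mostly in the windows of Gp1bb and Gp6, and the median member had 0%. Without Gp6 the share was 4.11%.

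**Figure D5:**
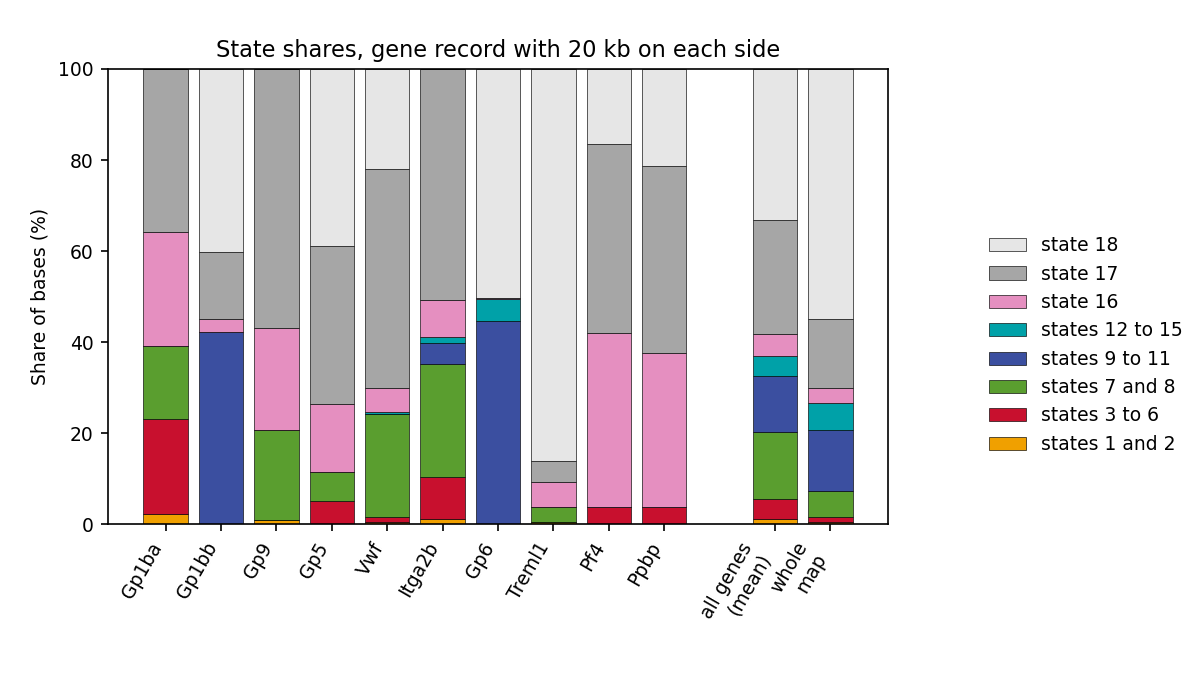
Share of bases (vertical axis, %) in each state group for the record of each platelet gene with 20 kb on each side, beside the mean over all protein-coding genes and the whole map. Pink (state 16) is highest in Pf4 at 38.1% and Ppbp at 33.8%, blue (states 9 to 11) is large only in Gp1bb and Gp6, and Treml1 is 86.1% state 18.

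The members varied among themselves in these shares. The shared percentage, the sum over states of the smaller of 2 shares, ran from 0.267% between Gp6 and either Gp1ba or Gp9 to 95.1% between Pf4 and Ppbp, which share most of their window. The highest value between separate windows was 79.6%, for Gp9 and Itga2b, and Gp1bb and Gp6 shared 67.3%. The genes closest to the mean of the members were Vgll4 (91.8%), Slc16a5 (91.0%), Mplkip (90.9%), Rpl11 (90.9%) and Gm46139 (90.8%), against a median of 54.5% over all protein-coding genes. These 5 are by selection the highest among non-member protein-coding genes with no base in a member window. Among the members the value ran from 36.1% (Gp6) to 84.5% (Gp5), and 7 of 10 lay above the median of all genes. Each member is part of that mean, and Pf4 and Ppbp enter it with largely the same window. High values among members are thus favoured in advance.

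Other platelet and megakaryocyte genes formed a list of 40. Of 29 with a listed start, 18 began in states 3 to 6, where 50.3% of all protein-coding genes begin. State 16 held 5 of the 29, against 1.83% of all protein-coding genes. The first group included Selp (the adhesion receptor P-selectin), P2ry1 and P2rx1 (nucleotide receptors) and F2rl3 (the thrombin receptor PAR4). Those in state 16 included F2rl2 (the thrombin receptor PAR3), Tbxa2r (the thromboxane receptor), F5 and F13a1 (coagulation factors), and Tubb1, the megakaryocyte tubulin. Their state 16 segments spanned 2.6, 0.8, 1.2, 0.6 and 0.8 kb. The median window share of state 16 over the 40 was 10.3%, beside 11.5% for the 10 members. With Pf4 or Ppbp left out, as their windows overlap, the member median is 8.13%, below that of the 40.

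Genes of other mature blood cells were looked up in the same way. Over all protein-coding genes state 16 held 1.83% of starts, state 17 held 5.74%, state 18 held 19.3% and states 3 to 6 held 50.3%. States 9 to 11 held 18.4%. Of 10 neutrophil granule genes 2 began in state 16 (Mpo and Ltf) and 0 in states 3 to 6, while state 17 held 4 and state 18 held 2. Prtn3 began in state 1 and S100a9 in state 2, which held 0.337% and 0.555% of all starts. Of 7 erythroid genes with a start 2 began in state 16 (Epb42 and Epor), 5 in state 17 and 0 in state 18 or in states 3 to 6. Of 8 T cell genes with a start 3 began in state 17, 2 in state 18, 3 in states 9 to 11 and 0 in state 16 or in states 3 to 6. Median state 16 shares were 3.44%, 4.09% and 5.30% in that order, and 15.0% for the list of 10 genes of HSCs and early progenitors, which includes Flt3 and Cd48. The lists were small and chosen with results known, so no test between them was made. Whether signal from other cells in the sort entered the map was not tested.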

How the data were processed

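H3.3 ChIP-seq libraries were made from sorted HSCs after micrococcal nuclease digestion with a rat monoclonal antibody, per the labels' protocols. Tools named in the submitters' processing notes are HOMER, MACS2, Bowtie2 and deepTools (no version); mm10 is the build. The authors deposited a segmentation: the value is a state number from 1 to 18 per segment, a category and not a quantity, and states are ordered by emission per the file headers. Which tracks trained the model is not stated. A second deposited layout of the map matched the first in 100% of bins.

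Gene records and starts came from RefSeq tables of GRCm38.p6. Of 21900 protein-coding records, 13 off the map and 108 in the first 3 Mb of a chromosome were left out, leaving 21779. Of these 17492 have a listed start, and 2761 have several, of which the first listed was used. Opposite-strand promoters that overlap were reverse complements in 1893 of 1893 pairs. Shares were computed per base with Python 3.11.15, NumPy 2.4.6 and pandas 2.3.3. The coverage code was tested on simulated data (2000 intervals, 0 errors). Shares carry 95% Wilson intervals over bins (SciPy 1.17.1), used only to judge alternatives, and neighbouring bins are not independent. The named genes were the 10 members, protein-coding neighbours in their windows, the 5 genes closest in shares, and the first 4 of the longer platelet list by state. Tubb1, Rnase10, the other lists' examples and the CpG limit were chosen after their values were seen. The members and lists were chosen with earlier results of these data known. Alternatives changed the flank, segment handling, file, start definition, background and members left out.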

Additional observations from a re-analysis of the deposited data

How the results depend on the processing

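The number of members beginning in state 16, 5 of 9, was 4 by the most frequent state within 1 kb, 7 with any bin within 1 kb, 5 in the expanded file and 6 of 10 by either record end. For state 17 the 1 start became 2, 4 and 5 by most frequent state, any bin and either end. For state 18 the 0 became 2 by either end, and for states 3 to 6 the 1 became 2 with any bin. With flanks of 0 and 50 kb the state 16 share was 7.92% and 8.56%, and 15.6% with equal weight per gene. State 17 took 38.7%, 39.6% and 27.8% with flanks of 0, 5 and 50 kb and 31.4% with whole segments. State 18 took 17.1% and 18.1% with flanks of 0 and 5 kb and 31.8% with whole segments. States 3 to 6 took 4.43% with equal weight. States 9 to 11 took 11.9%, 12.1% and 11% with flanks of 0, 5 and 50 kb. Leaving out 1 member at a time gave 9.39 to 13% for state 16, 27.7 to 39.0% for state 17, 23.0 to 31.3% for state 18, 2.13 to 4.63% for states 3 to 6 and 4.11 to 13.5% for states 9 to 11. The shares of all starts with all annotated genes were 3.17% (state 16), 9.44% (state 17), 26.2% (state 18) and 37.4% (states 3 to 6). With any listed start, an alternative chosen after seeing the data, they were 2.45%, 7.39%, 20.3% and 51.6%. On autosomes only, state 18 held 17.2%, states 3 to 6 51.4% and states 9 to 11 19.2%. The cause of these shifts was not tested. Of the 133 alternatives, 84 stayed close to the reported value. Shares were judged by its interval, counts by a factor of 1.5 and distances by 1 standard deviation over members. The 84 include the alternatives with the expanded file, which could not differ because it matched the first layout in 100% of bins. No paired analysis was possible because the map holds no column for a replicate. Depth is unknown and limits every value.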
